A study of Rattus norvegicus with 18 samples.

Results

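Transcripts of 6 inflammatory signalling genes were followed in rat hearts after doxorubicin, with and without AICAR: the chemokines Ccl2 and Cxcl10, the cytokines Il1b and Il6, and the leukocyte adhesion molecules Icam1 and Vcam1. They were taken as 6 named rows of the deposited table, which holds 32545 rat Ensembl gene identifiers (ENSRNOG00000007159 for Ccl2, ENSRNOG00000022256 for Cxcl10, ENSRNOG00000004649 for Il1b, ENSRNOG00000010278 for Il6, ENSRNOG00000020679 for Icam1 and ENSRNOG00000014333 for Vcam1). The table itself carries no gene names, and the names used are those given with the identifiers. Male Wistar rats, an outbred strain, weighed 250 g at the start and were treated by 5 weekly intravenous injections. The 6 saline rats received saline, the 6 DOX+saline rats doxorubicin at 3 mg/kg per week with subcutaneous saline, and the 6 DOX+AICAR rats the same doxorubicin with subcutaneous AICAR at 0.5 g/kg. Doxorubicin is an anthracycline that damages DNA and injures heart muscle, and AICAR is a nucleoside that cells turn into a mimic of AMP, an activator of the kinase AMPK. Rats given AICAR without doxorubicin were not analysed here.

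When tissue is injured, resident macrophages and stromal cells release cytokines such as interleukin-1 beta, which act through the transcription factor NF-kappaB on neighbouring endothelial cells and fibroblasts. Those cells then make chemokines, which draw leukocytes along a gradient, and place adhesion molecules on the vessel wall, which hold the leukocytes so that they can leave the blood. In the heart this programme is known from infarction, myocarditis and pressure overload. Whole heart tissue was measured, so that a change in the number of cells of a type and a change in RNA per cell cannot be told apart.

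Polyadenylated RNA of each heart was sequenced as 1 library. The deposited unit is TPM, reads per base of transcript as a share of 1000000 in every library, so that levels can be compared between genes as well as between animals. Libraries held 20.57 to 31.32 M reads (M, 1000000 reads), as recovered from the TPM values. DOX+saline animals 1 and 6 were the most alike pair of libraries within a group. Their reads differed with a median chi-square of 0.615 per gene, where sampling noise alone gives 0.455 and the next pair, from saline, had 1.29. The other pairs within DOX+saline had medians from 3.07 to 7.97. Of 14470 genes compared between animals 1 and 6, 450 (3.11%) differed at p below 0.001 by chi-square. In the other DOX+saline pairs 26.2% to 44.8% did. The labels give them as separate animals, and n = 6 in DOX+saline counts them so. Exceeding sampling noise does not show that the RNA came from separate hearts, and whether the pair shared material was not tested. Calls that are lost without both animals are given beside each gene. All saline rats carry another series of animal numbers (51 to 56) than the doxorubicin rats (1 to 12), so a difference between cohorts and an effect of doxorubicin cannot be told apart. None of the 6 genes was too low to judge, set as a mean below 0.5 TPM in every group. Il6 came closest, with a highest group mean of 2.88 TPM and at least 1 TPM in 8 of 18 libraries.

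The stretches before the gene starts are shown for Icam1, Vcam1, Cxcl10 and Il6. Among the 5 members with a promoter entry, these are the ones whose upstream sequence held letters of the element bound by NF-kappaB. Ccl2 had no promoter entry and was not searched. The sequences are those of RefSeq on the build GRCr8, 250 bases each, 5′ to 3′ on the gene's strand and ending 1 base before the annotated start. Icam1 lies at chr8:27829595-27829844 on the plus strand, Vcam1 at chr2:206742784-206743033 on the minus strand, Cxcl10 at chr14:15988816-15989065 on the plus strand and Il6 at chr4:5894576-5894825 on the minus strand. Capitals mark every match to the 6 motifs searched.
Icam1: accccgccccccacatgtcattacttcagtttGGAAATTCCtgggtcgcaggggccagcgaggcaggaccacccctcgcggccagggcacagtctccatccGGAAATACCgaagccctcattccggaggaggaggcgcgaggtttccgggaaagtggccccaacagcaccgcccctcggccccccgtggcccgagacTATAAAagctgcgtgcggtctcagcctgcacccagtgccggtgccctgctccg
Vcam1: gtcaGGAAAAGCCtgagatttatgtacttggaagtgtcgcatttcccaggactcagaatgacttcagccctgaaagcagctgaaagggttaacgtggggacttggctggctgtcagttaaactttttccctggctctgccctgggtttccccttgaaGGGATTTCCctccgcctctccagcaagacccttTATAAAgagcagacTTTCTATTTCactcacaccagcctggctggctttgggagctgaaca
Cxcl10: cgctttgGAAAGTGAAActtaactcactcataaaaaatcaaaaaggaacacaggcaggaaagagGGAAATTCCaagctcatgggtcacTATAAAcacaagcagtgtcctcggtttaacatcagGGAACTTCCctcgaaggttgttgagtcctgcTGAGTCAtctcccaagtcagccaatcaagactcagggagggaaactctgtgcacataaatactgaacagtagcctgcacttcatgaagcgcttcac
Il6: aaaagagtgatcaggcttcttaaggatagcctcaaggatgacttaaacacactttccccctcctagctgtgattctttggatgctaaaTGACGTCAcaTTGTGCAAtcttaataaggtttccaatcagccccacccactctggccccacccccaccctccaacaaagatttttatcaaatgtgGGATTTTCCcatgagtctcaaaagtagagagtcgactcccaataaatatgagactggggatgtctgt

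The kappaB element was searched as GGNNNTTCC on both strands. It was present before 4 of the 5 members with a promoter entry, and before 15.4% of the 33469 promoters in the table. Icam1 held it at 218 and 149 bases before the start, Vcam1 at 246 and 93, Cxcl10 at 186 and 127, and Il6 at 67. The interferon response element, searched on both strands as GAAA, any 2 bases and GAAA, was present in Cxcl10 and Vcam1 and in 3.41% of promoters. The AP-1 element, TGANTCA on both strands, was found in Cxcl10 and in 6.34% of promoters. Il6 alone held the cyclic AMP response element TGACGTCA (1.59% of promoters) and the C/EBP element TTGNNCAA (5.25%), close together and both searched on both strands. A TATA box, TATAAA on the gene's strand, lay 53 bases before the start of Icam1 and 60 bases before those of Vcam1 and Il1b. It was also found 162 bases before the start of Cxcl10, and in 8.06% of promoters. No match overlapped a match of another motif. A match describes letters in the window, not binding.

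**Figure D1:**
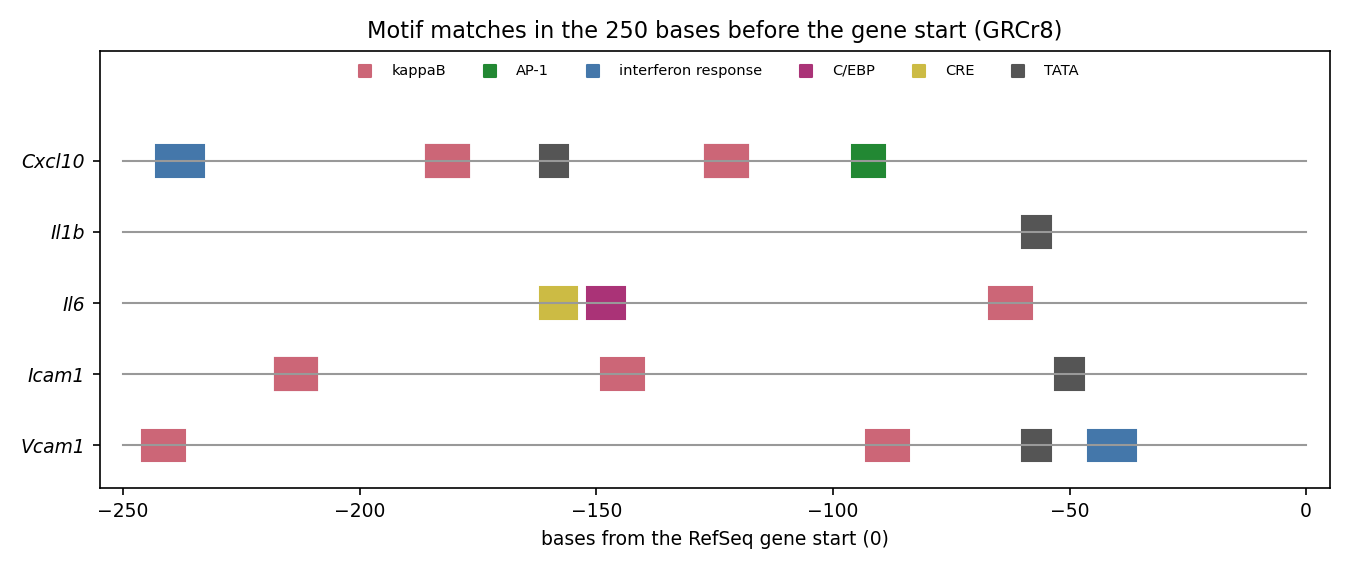
Motif matches (coloured boxes, 1 colour per motif) along the 250 bases before the RefSeq start of 5 members, with distance from the start in bases on the x axis. Each of Icam1, Vcam1 and Cxcl10 holds 2 kappaB matches, Il6 holds 1 and Il1b none.

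What doxorubicin did to these transcripts was addressed by DOX+saline against saline. All 6 genes were higher after doxorubicin, with means from 2.15 times (Cxcl10) to 15.6 times (Il6) those in saline hearts. Ccl2, Icam1 and Vcam1 rose 3.05 to 3.97 times, with no overlap between the groups. The median change of the 6 genes was 1.5 on the log2(TPM + 1) scale, against 0.10 over all 14732 genes tested. Calls used limma with Benjamini-Hochberg adjustment over all genes tested and a threshold of 0.05. The 6 of 6 called higher stand beside a background of 58.0% of all genes called and 38.0% called higher. Il6 met the filter of at least 1 TPM in 6 libraries through 3 DOX+saline and 5 DOX+AICAR libraries and 0 saline libraries, so it was admitted by the groups where it is high, and its call adds nothing to this count. A log2 change above 1 with a call was seen in 5 of the 6, and in 6.68% of genes. In 4 of the 6 genes every DOX+saline animal lay above every saline animal, which held for 21.1% of genes. Il6 is in both of these counts too, and adds nothing to either. The median change of 1.5 includes it as well.

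The chemokines were the first group by role. Ccl2 encodes the chemokine that draws monocytes through the receptor CCR2. Saline hearts held 5.22 TPM at the lowest, 6.38 at the median and 9.01 at the highest, and DOX+saline hearts 19.7, 24 and 28.6 TPM. The groups did not overlap, and the DOX+saline animals differed little among themselves, the highest being 1.45 times the lowest. The mean rose from 6.67 ± 1.44 to 24.1 ± 3.82 TPM (SD, n = 6). On the log2(TPM + 1) scale the difference was 1.71, with an SE of 0.27 (adjusted p = 4.22e-05, limma). Cxcl10 encodes an interferon-induced chemokine that attracts T cells through CXCR3. It ranged from 1.66 over a median of 2.50 to 8.49 TPM in saline, and from 3.14 over 5.93 to 12 TPM in DOX+saline. The groups overlapped: saline animal 53, at 8.49 TPM, lay above 4 of the 6 DOX+saline animals. The mean rose from 3.41 ± 2.55 to 7.31 ± 3.63 TPM (SD, n = 6). On the log2(TPM + 1) scale the difference was 0.94, with an SE of 0.34 (adjusted p = 0.0226, limma). The call on Cxcl10 was lost without saline animal 51 (limma adjusted p = 0.0543), DOX+saline animal 1 (0.0590) or 6 (0.0579), without both of the latter (log2 change 0.58, adjusted p = 0.172) and with quantile normalization (0.63, adjusted p = 0.1).

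The cytokines were the scarcest members in saline hearts. Il1b encodes interleukin-1 beta, made as a precursor mainly by macrophages and neutrophils and released after cleavage by caspase-1. It was at 0.543, 1.30 and 2.74 TPM (lowest, median, highest) in saline and at 1.62, 6.75 and 28.2 TPM in DOX+saline. DOX+saline animal 2 stood far above the other 5, which lay between 1.62 and 7.87 TPM, and animals 4 and 5 lay within the saline range. The mean rose from 1.52 ± 0.774 to 8.90 ± 9.82 TPM (SD, n = 6). On the log2(TPM + 1) scale the difference was 1.56, with an SE of 0.59 (adjusted p = 0.0310, limma). This call sat near the threshold: it was lost in 11 of 31 alternatives, among them those without saline animal 51 (0.0503), 52 (0.0516) or 56 (0.0634) or DOX+saline animal 1 (0.0558), 2 (0.0781), 3 (0.0505) or 6 (0.0509). Without DOX+saline animal 2 the log2 change was 1.15, and without animals 1 and 6 it was 1.45 (adjusted p = 0.0956).

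Il6 encodes interleukin-6, which signals through gp130 and STAT3 and induces acute phase proteins. Its values in saline were 0 at the lowest, 0.0660 at the median and 0.246 TPM at the highest, from 0 to 3 reads a library. The 2 saline libraries at 0 reads, animals 52 and 56, allow up to 0.220 and 0.272 TPM (3 reads, counting error only). DOX+saline hearts held 0.625, 0.947 and 2.80 TPM, from 9 to 37 reads. Every DOX+saline animal lay above every saline animal. No saline library reached the 1 TPM of the filter, while 3 DOX+saline and 5 DOX+AICAR libraries did. Admission in this way favours a difference from saline, so the test of Il6 is given as a description. The mean went from 0.0840 ± 0.0926 to 1.31 ± 0.834 TPM (SD, n = 6). On the log2(TPM + 1) scale the difference was 1.03, with an SE of 0.32 (adjusted p = 0.0114, limma). The added 1 TPM compresses this change: with a pseudocount of 0.1 it was 2.90, and with voom on the recovered reads 3.61. Summed over the groups, 113 reads of 164.2 M in DOX+saline stood against 7 of 157.3 M in saline, a rate ratio of 15.5 (95% exact interval 7.26 to 39.3, counting error only). The call was lost with quantile normalization (log2 change 0.62, limma adjusted p = 0.130) and without DOX+saline animals 1 and 6 (0.75, adjusted p = 0.0836).

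The adhesion molecules rose in every DOX+saline animal above the saline range. Icam1 encodes the endothelial ligand of the leukocyte integrins LFA-1 and Mac-1, which halts rolling leukocytes. Saline hearts held 7.84, 8.47 and 11.8 TPM (lowest, median, highest) and DOX+saline hearts 14.6, 27.1 and 41.5 TPM, without overlap. The mean rose from 8.98 ± 1.46 to 27.3 ± 9.24 TPM (SD, n = 6). On the log2(TPM + 1) scale the difference was 1.45, with an SE of 0.38 (adjusted p = 0.00336, limma). Vcam1 encodes the ligand of the integrin VLA-4, carried by monocytes and lymphocytes. It was at 3.03, 3.67 and 5.08 TPM in saline and at 9.36, 14.4 and 20.5 TPM in DOX+saline, again without overlap. The mean rose from 3.8 ± 0.730 to 15.1 ± 4.22 TPM (SD, n = 6). On the log2(TPM + 1) scale the difference was 1.72, with an SE of 0.31 (adjusted p = 0.000161, limma). Ccl2, Icam1 and Vcam1 were called in all 31 alternatives run for this comparison. DOX+saline animal 5 was the lowest of its group in both adhesion genes and in Il1b.

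**Figure D2:**
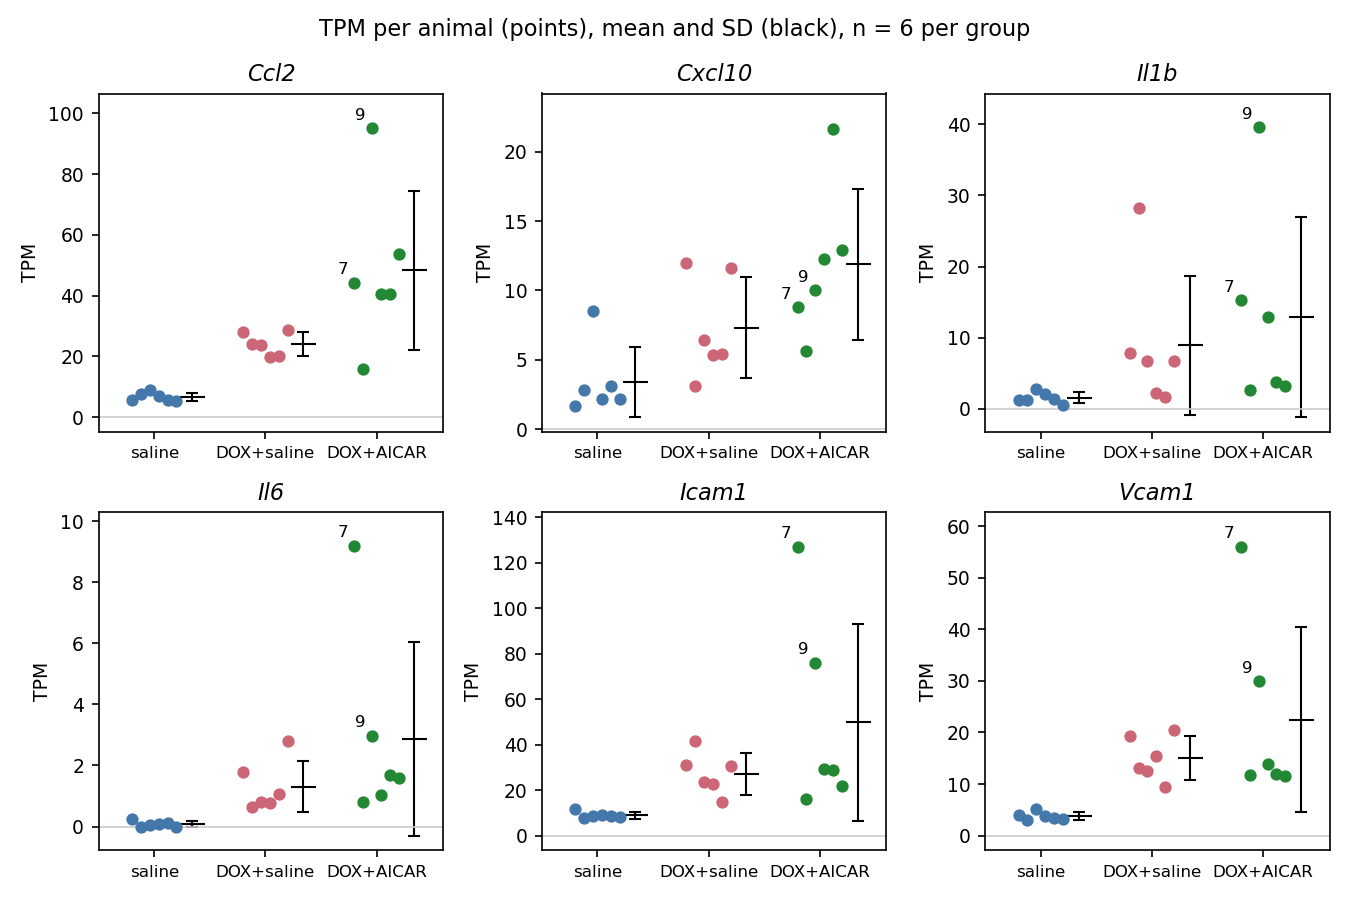
TPM of each gene (y axis, linear, 1 panel per gene) in every animal of the 3 groups, with the mean and SD in black (n = 6 per group) and DOX+AICAR animals 7 and 9 numbered. Saline points lie low and close together except for 1 Cxcl10 value of 8.49 TPM, and the DOX+AICAR points of Icam1 reach from 16.3 to 127 TPM.

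The balance of higher and lower calls over all genes depended on the scaling, and the members were read against it. Of all calls in DOX+saline against saline, 65.5% were higher on the deposited values, 48.0% with median-of-ratios scaling and 41.0% with quantile normalization. The median change over all genes tested was 0.10, -0.00 and -0.06 in that order. The members' log2 changes were 0.85 to 1.61 with median-of-ratios scaling, where all 6 were called, and 0.62 to 1.5 with quantile normalization, where Ccl2, Icam1 and Vcam1 were called. All 6 changes were above 0 under each scaling.

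The question of what AICAR changed on top of doxorubicin rested on DOX+AICAR against DOX+saline. The means of all 6 genes were higher with AICAR, from 1.45 times (Il1b) to 2.19 times (Il6), and 0 of 6 passed the test (limma). Single animals set both ends. Without DOX+AICAR animal 9 the Il1b mean was 7.57 TPM, 0.850 times that of DOX+saline, and without animal 7 the Il6 mean was 1.62 TPM, 1.23 times. Vcam1 stood at 1.05 times without animal 7. In this comparison 1.33% of all genes were called, 0.577% were called higher, and 0.0136% were called higher with a log2 change above 1. Ccl2 was the 1 member with an unadjusted limma p under 0.05 (0.00788), as were 2590 genes in all, and voom on the recovered reads called 0 of 6. The median change of the members was 0.53 on the log2(TPM + 1) scale, against -0.00 over all genes tested. The 95% intervals were wide, and a missed threshold does not show equal levels. In no member did the groups lie apart, as they did with AICAR above doxorubicin alone for 0.658% of genes.

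Ccl2 came closest to a call. DOX+AICAR hearts held 15.9, 42.4 and 95.1 TPM (lowest, median, highest) against 19.7, 24 and 28.6 TPM in DOX+saline. Of the 6 DOX+AICAR animals, 5 lay above every DOX+saline animal, and animal 8 lay below all of them. The mean was 48.3 ± 26.1 against 24.1 ± 3.82 TPM (SD, n = 6), a log2 difference of 0.82 (SE 0.27, 95% interval 0.24 to 1.39, limma adjusted p = 0.130). A two-sided exact permutation test on the mean TPM of this gene alone gave p = 0.0195, 1 of 18 such tests and unadjusted. Without animal 8 the difference was 1.09 and passed the test (limma adjusted p = 0.0132). It was 0.59 without animal 9 (adjusted p = 0.236) and 0.94 without DOX+saline animals 1 and 6 (adjusted p = 0.109).

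Cxcl10 did not pass the test between these groups. DOX+AICAR hearts held 5.60, 11.2 and 21.6 TPM, and 3 of 6 lay above every DOX+saline animal. The mean was 11.9 ± 5.44 against 7.31 ± 3.63 TPM (SD, n = 6), a log2 difference of 0.64 (95% interval -0.06 to 1.35, limma adjusted p = 0.332). Animal 11 was the highest for Cxcl10, a place it held for no other member. Without DOX+saline animals 1 and 6, which held the 2 highest Cxcl10 values of their group, the difference was 1.01 (limma adjusted p = 0.108). It was 0.46 without DOX+AICAR animal 11 (adjusted p = 0.532), 0.47 without DOX+saline animal 2 (0.477) and 0.23 with array weights, which give less weight to libraries that vary more (0.729).

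In Il1b, Il6, Icam1 and Vcam1, animals 7 and 9 had the 2 highest values of the DOX+AICAR group. They held 70.9% of the group's summed Il1b, 70.4% of Il6, 67.8% of Icam1 and 63.6% of Vcam1. Their share was 48.1% for Ccl2, where both lay above every DOX+saline animal, and 26.4% for Cxcl10, where neither did. Icam1 was at 127 TPM in animal 7 and 76.1 TPM in animal 9, while the other 4 lay between 16.3 and 29.2 TPM, within the DOX+saline range of 14.6 to 41.5 TPM. Vcam1 was at 56 and 29.9 TPM in animals 7 and 9 and between 11.6 and 13.9 TPM in the other 4, again within the DOX+saline range of 9.36 to 20.5 TPM. For Il6 the pair held 9.20 and 2.98 TPM, from 127 and 48 reads, and the other 4 animals 0.793 to 1.70 TPM. Il1b was at 15.3 TPM in animal 7 and 39.6 TPM in animal 9, and at 2.62 to 12.9 TPM in the other 4. Recovered depth was 26.16 M reads in animal 7 and 30.81 M in animal 9, inside the range of all libraries. The part of depth, RNA quality or tissue sampling in these values was not tested.

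None of these 4 genes passed the test, and each 95% interval of the log2 difference included 0. The differences were 0.39 for Il1b (95% interval -0.84 to 1.63, limma adjusted p = 0.773) and 0.53 for Il6 (-0.15 to 1.21, adjusted p = 0.412). Icam1 stood at 0.53 (-0.27 to 1.33, limma adjusted p = 0.489) and Vcam1 at 0.32 (-0.34 to 0.97, adjusted p = 0.640). The median of Vcam1 with AICAR was 0.898 times that of DOX+saline. Leaving out animals 7 and 9, a choice made after their values were seen, gave differences of -0.34 for Il1b, 0.03 for Il6, -0.14 for Icam1 and -0.24 for Vcam1. Ccl2 and Cxcl10 then stood at 0.52 and 0.75. With array weights and all 18 libraries, Il1b stood at 0.45, above its 0.39, while Il6 stood at 0.12, Icam1 at 0.35 and Vcam1 at 0.04. None of the 6 passed the test without these animals (limma adjusted p from 0.351 to 0.968). Leaving out animals chosen for high values lowers a mean by construction.

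**Figure D3:**
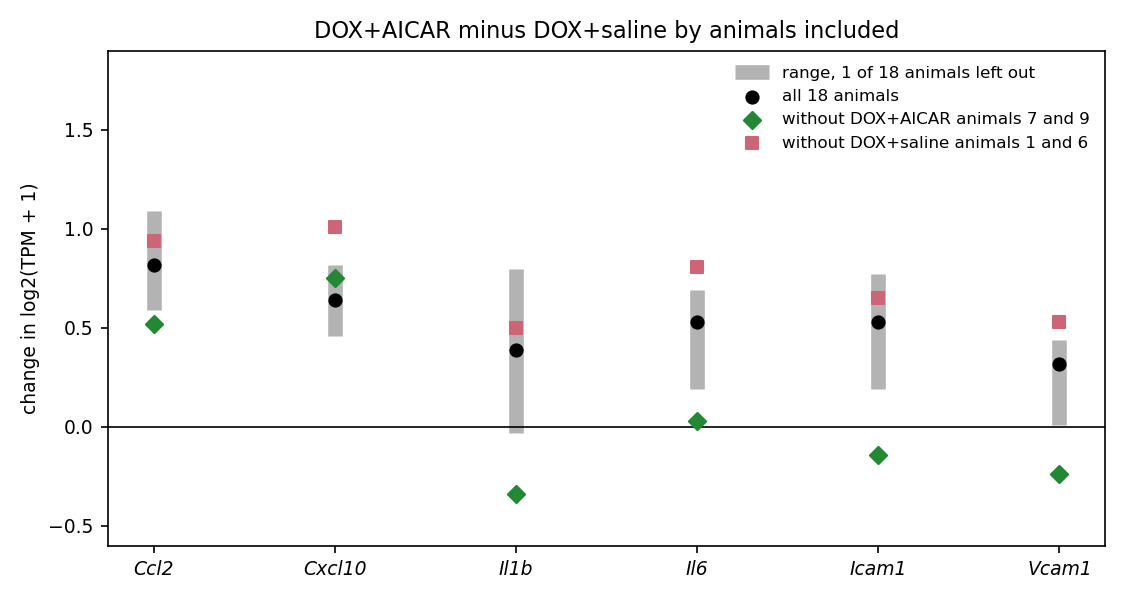
Difference of DOX+AICAR and DOX+saline in log2(TPM + 1) (y axis) for each gene, with all 18 animals (black), as the range when each animal is left out in turn (grey), without DOX+AICAR animals 7 and 9 (green) and without DOX+saline animals 1 and 6 (red). Without animals 7 and 9 the differences of Il1b, Icam1 and Vcam1 fall below 0, and those of Ccl2 and Cxcl10 stay at 0.52 and 0.75.

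DOX+AICAR against saline set hearts after both drugs beside hearts after neither. All 6 members were called higher, Il6 again admitted through the doxorubicin groups, where 53.3% of all genes were called (limma) and 34.8% called higher. A log2 change above 1 with a call was seen in 6 of 6 members and 6.18% of genes. Il6 adds nothing to these counts. The median change of the members, Il6 included, was 1.97 against 0.09 over all genes tested. The saline libraries are the same as in the comparison with DOX+saline, so these are not independent results. Ccl2 averaged 7.24 times its saline level (log2 change 2.53, SE 0.27, limma adjusted p = 9.25e-07), and 86 of 14732 genes had a larger change. Vcam1 was 5.92 times as high on average (log2 change 2.03, SE 0.31, adjusted p = 3.69e-05) and Icam1 5.56 times (1.98, SE 0.38, adjusted p = 0.000290). Cxcl10 stood at 3.48 times (log2 change 1.59, SE 0.34, limma adjusted p = 0.000700) and Il1b at 8.51 times (1.95, SE 0.59, adjusted p = 0.00973). Il6 averaged 34.3 times its saline level (log2 change 1.56, SE 0.32, limma adjusted p = 0.000606), from 246 reads of 164.2 M against 7 of 157.3 M. In Ccl2, Il6, Icam1 and Vcam1 the groups did not overlap, as in 22.9% of all genes, and here too Il6 adds nothing. Without animals 7 and 9, Il1b was no longer called (1.22, limma adjusted p = 0.0757), Icam1 stood at 1.31 (adjusted p = 0.000230) and Il6 at 1.06 (adjusted p = 0.000705).

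**Figure D4:**
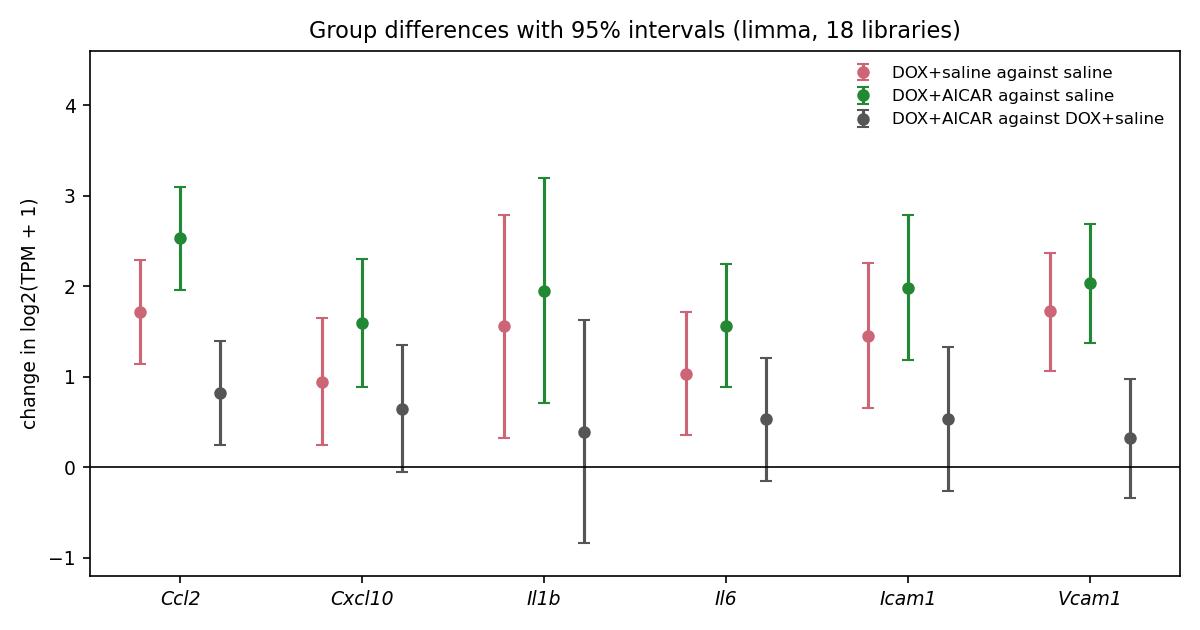
Group differences in log2(TPM + 1) (y axis) with 95% intervals from limma for the 6 genes in the 3 comparisons, all 18 libraries. Intervals of both comparisons with saline lie above 0 for each gene, and those of DOX+AICAR against DOX+saline include 0 for every gene except Ccl2 (0.24 to 1.39), whose adjusted p missed the threshold.

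By the SD of log2(TPM + 1), the animals of the DOX+AICAR group were the least alike of the 3 groups for 5 of the 6 genes. For Il6 the added 1 TPM compresses the saline SD (0.12, from 0 to 3 reads). In TPM its SD slightly exceeded its mean in saline (0.0926 and 0.0840) and in DOX+AICAR (3.18 and 2.88) alike. Icam1 had an SD of 0.19 among saline animals, 0.50 among DOX+saline animals and 1.11 among DOX+AICAR animals, where the median over all genes tested was 0.11, 0.17 and 0.14. In DOX+AICAR 0.869% of genes had a larger SD than Icam1, 0.441% a larger one than Il1b (1.39) and 1.53% a larger one than Vcam1 (0.91). Ccl2 went from 0.26 in saline to 0.22 in DOX+saline and 0.81 in DOX+AICAR. Cxcl10 was the exception, with SDs of 0.65, 0.64 and 0.59, but its saline value rested on animal 53, without which it was 0.25. Without animal 7 the DOX+AICAR SD was 0.44 for Il6, under the 0.47 of DOX+saline, and 0.56 for Vcam1. Without animal 9 that of Il1b was 1.03, under the 1.24 of DOX+saline, which itself was 0.82 without DOX+saline animal 2. Without animal 8 that of Ccl2 was 0.51, and without saline animal 51 the saline SD of Icam1 was 0.08. These are descriptions of 6 animals per group, and the differences in spread were not tested.

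Ranks within a group showed which animals were high across the members. In DOX+AICAR, animal 8 was the lowest in 5 of 6 members and animal 12 the lowest in Vcam1. Animal 7 was the highest in Il6, Icam1 and Vcam1, and animal 9 in Ccl2 and Il1b. In DOX+saline, animals 1 and 6 held ranks 1 and 2 for Ccl2, Cxcl10, Il6 and Vcam1. DOX+saline animal 2 had the most Il1b and Icam1 of its group (28.2 and 41.5 TPM) and the least Cxcl10 and Il6 (3.14 and 0.625 TPM). In saline, animal 53 was the highest in Ccl2, Cxcl10, Il1b and Vcam1. The members therefore did not order the animals alike.

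**Figure D5:**
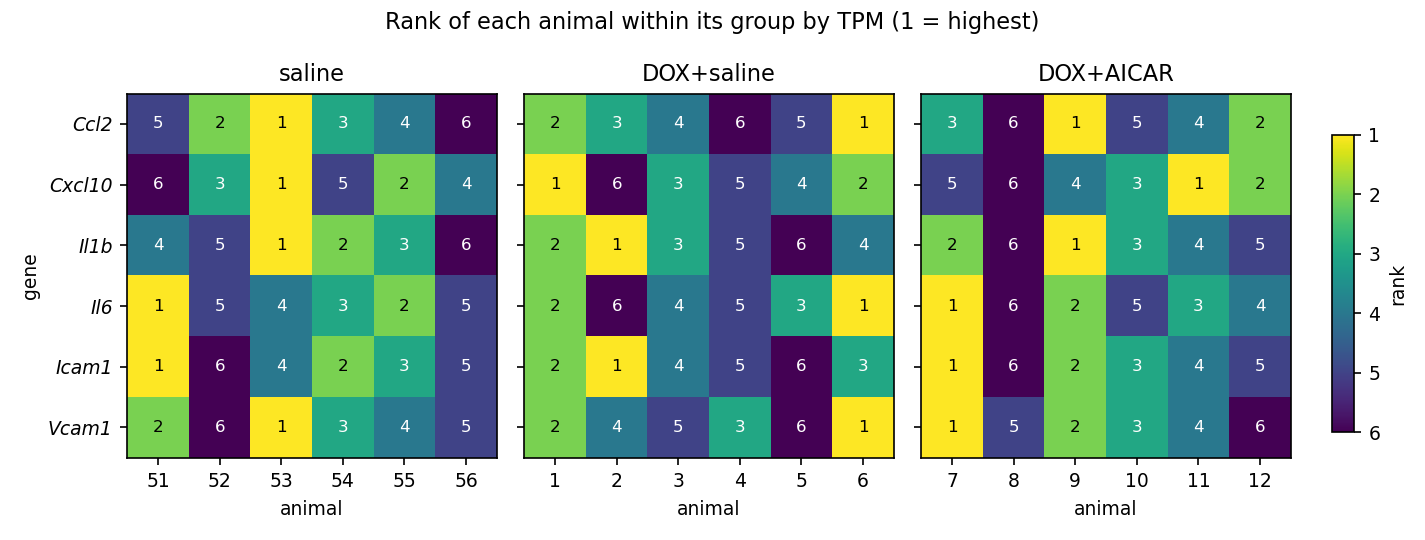
Rank of each animal (columns) within its group by TPM of each gene (rows), from 1, the highest, in yellow to 6, the lowest, in dark blue; 2 saline animals tie at 0 TPM for Il6. Animals 7 and 9 hold ranks 1 and 2 for Il1b, Il6, Icam1 and Vcam1, and animal 8 ranks 5 or 6 in every row.

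By level per length, Icam1 was the most abundant member in each group by mean TPM, followed by Ccl2 and Vcam1, and Il6 the scarcest. In saline Icam1 (8.98 TPM) was above Ccl2 (6.67 TPM) in 5 of 6 animals, with overlapping ranges, and in DOX+AICAR (49.9 and 48.3 TPM) in 2 of 6. Ccl2 was above Vcam1 in 6 of 6 saline animals, with ranges apart, in 6 of 6 DOX+saline animals and in 5 of 6 DOX+AICAR animals. Cxcl10 was the fourth in saline, and by mean Il1b took that place in both doxorubicin groups, where Il1b was above Cxcl10 in 2 of 6 and 3 of 6 animals. Neighbours in this order overlapped in every case but Ccl2 and Vcam1 in saline, Il1b and Il6 in saline, and Cxcl10 and Il6 in DOX+saline.

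Icam1 and Vcam1 were also set against each other within each animal, as a ratio of TPM. Its mean was 2.41 ± 0.408 among saline animals, 1.85 ± 0.643 after doxorubicin with saline and 2.11 ± 0.416 after doxorubicin with AICAR (SD, n = 6), from 1.40 to 3.14 over the doxorubicin animals. Over the same animals Icam1 ranged from 14.6 to 127 TPM. The genes whose pattern was most like that of Icam1, the member with the highest mean, were sought over all tested genes by Pearson's r of log2(TPM + 1) across the 18 libraries, as a description. Outside the members these were ENSRNOG00000042078 (r = 0.962) and ENSRNOG00000031163 (r = 0.944). The first averaged 0.0480 ± 0.0770, 1.44 ± 1.08 and 2.45 ± 2.23 TPM in saline, DOX+saline and DOX+AICAR hearts. Animals 7 and 9 were the highest of the last group. Saline values of this gene reached 0.176 TPM at most, so it met the filter through the doxorubicin groups only. Its r over the 18 libraries includes that step between groups. The second averaged 3.55 ± 0.407, 13.1 ± 4.55 and 14.9 ± 11.2 TPM, with animals 9 and 7 the highest (SD, n = 6 each). The 18 libraries share their 3 treatment groups, and no test was made.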

How the data were processed

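Heart RNA of 18 rats was measured in 3 groups of 6, grouped by the treatment label, 1 library per animal. Per the submitters' processing notes, the tools were bcl2fastq 2.17.1.14, HISAT2 and featureCounts (Subread 1.5.0), with the build Rnor_6.0. Libraries were stranded, per the labels' protocols. For the counting, annotation release and strand setting: not given in the sources used here. The authors deposited TPM, which sum to 1000000 in each library. A fixed total makes a fold change a change of share.

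Whole reads were recovered from ratios of TPM between libraries. All 25878 genes above 0 came out whole within 0.001 reads, which is fixed in advance for a gene above 0 in a single library. Among them were all 20828 genes above 0 in at least 6 libraries.

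Genes with at least 1 TPM in 6 of 18 libraries (14732) were fitted on log2(TPM + 1) with limma 3.58.1 (R 4.3.3; mean per group, mean-variance trend). P-values were two-sided with Benjamini-Hochberg adjustment over all genes tested, threshold 0.05. Member by member, an exact two-sided permutation test on mean TPM used all 924 assignments of 12 libraries (smallest p 0.00216). The limma step was tested on simulated reads with the gene means of saline and 1 dispersion of 0.1 for every gene (14111 genes). Genes set to change in DOX+saline were drawn from those with more reads. The members' own spread and the few reads of Il6 were not simulated. The rates that follow therefore do not describe these members. Calls were made for 6.00% of 50 genes set to change 1.5-fold, for 46.0% of 50 set to 2-fold, for 100% of 50 set to 4-fold, and for 7 of 13911 left unchanged.

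The 6 genes and all lists were chosen with earlier results of these data known. Besides the members, the naming rule allowed the 2 genes most like the most abundant member. 13 pathway and marker lists (75 symbols) were not tested, because 0 of 32545 identifiers matched the reference gene table (GRCr8), so the tissue and cell types were not checked against markers. Promoters were matched by symbol for 5 of 6 members, all but Ccl2. Alternatives changed the pseudocount, filter, scaling, libraries in the fit, weights, spread and unit, and left out animals.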

Additional observations from a re-analysis of the deposited data

Results flagged for a closer look

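An extreme animal was picked where its gap to the next animal exceeded 0.625 of the range of its group of 6. Of 18 groups (6 genes in 3 groups), 5 were picked, each for its highest animal. For normally distributed values in independent groups about 1 in 20 would be picked, or 0.900 here. TPM values were not checked for a normal distribution, and the genes share their animals. The 0.900 is therefore no measure of chance for these groups.

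Saline animal 53 had 8.49 TPM of Cxcl10, where the other 5 saline animals had 1.66 to 3.13 TPM. Saline animal 51 had 11.8 TPM of Icam1 against 7.84 to 9.15 TPM in the others. DOX+saline animal 2 had 28.2 TPM of Il1b against 1.62 to 7.87 TPM. DOX+AICAR animal 9 had 39.6 TPM of Il1b, against 2.62 to 15.3 TPM in the others. DOX+AICAR animal 7 had 9.20 TPM of Il6, against 0.793 to 2.98 TPM.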

How the results depend on the processing

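For each comparison 31 alternatives were run, 3 of them chosen after seeing the data (without DOX+AICAR animals 7 and 9, without DOX+saline animals 1 and 6, and those 2 averaged as 1 animal). The number of members called in DOX+saline against saline was 3 with quantile normalization and 3 without DOX+saline animals 1 and 6, against 6 on all 18 libraries, and 4 to 6 when each animal was left out. With animals 1 and 6 counted as 1 it was 4, with Cxcl10 (limma adjusted p = 0.0583) and Il1b (0.0529) not called. In DOX+AICAR against DOX+saline 0 members were called, or 1 (Ccl2) without DOX+AICAR animal 8, a range of 0 to 1 when each animal was left out. In DOX+AICAR against saline 5 or 6 members were called throughout, and 6 when each animal was left out. Fitting only the 12 libraries compared left Il6 below the filter against saline, so 5 members were tested there.

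Signs turned only between the doxorubicin groups: with each animal left out in turn Il1b lay between -0.03 (DOX+AICAR animal 9 left out) and 0.80 (DOX+saline animal 2), and without animals 7 and 9 Il1b stood at -0.34, Icam1 at -0.14 and Vcam1 at -0.24. Genes called in that comparison numbered 196, and from 16 (only the 12 libraries compared) to 1058 (array weights) over the alternatives, while those of the comparisons with saline stayed within 1.5 times. Exact permutation tests, unadjusted, gave p below 0.05 for all 6 members against saline in both comparisons. They ran from 0.00216, the smallest possible, to 0.0498 for Cxcl10 in DOX+saline, at the threshold. Il6, admitted through the doxorubicin groups, adds nothing to this count. No paired analysis was possible because the groups share no animal numbers. Depth limits Il6 most, with 0 to 3 reads in saline libraries.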
